A study of Saccharomyces cerevisiae with 22 samples.

Results

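Transcription start sites of DTT-treated yeast carrying swi3-E815X were compared with those of DTT-treated wild type. The comparison covered every line with a consensus cluster number in 1 of the 7 comparison tables that the authors deposited, which came to all 5195 clusters of the series. A consensus cluster is a group of neighbouring transcript 5′ ends treated as 1 start. The comparison rests on 4 of the 22 libraries of the series. Both groups were strain W303 of Saccharomyces cerevisiae, deleted for SWI3 and carrying a copy integrated with the LEU2 marker. The group swi3E815X_DTT (swi3Δ; swi3-E815X::LEU2) received the mutant copy and the group SWI3_DTT (swi3Δ; SWI3::LEU2) the wild-type copy. Each group has 2 libraries, collected on separate days per the labels. All cultures grew in YPD in log phase and were collected 1 h after 5 mM dithiothreitol (DTT) was added. The labels do not say how many clones of each strain were used. The libraries record the 5′ ends of capped, polyadenylated RNA (TL-seq).

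Swi/Snf is a chromatin remodelling complex that uses ATP hydrolysis by its Snf2 subunit to slide and evict nucleosomes, mostly at promoters of inducible genes. Swi3 is a scaffold subunit, and the name E815X stands for a stop codon that replaces a glutamate codon of SWI3. DTT reduces disulphide bonds, so that proteins misfold in the endoplasmic reticulum (ER) and the unfolded protein response is switched on. The study concerns Swi/Snf at genes where upstream transcription can interfere with a downstream start. Yeast takes up scarce iron through a set of genes under the activator Aft1, which binds the core letters CACCC, and scarce phosphate through genes under Pho4, which binds CACGTG.

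The starts that moved within a gene are shown first, since several comparisons below turn on them. In each of HNT1, RNR4 and NCE102 a start far from the coding region and a start near it changed unequally, and the bases around both are printed 5′ to 3′ from the RefSeq copy of R64, with the first 15 bases of each cluster in capitals. HNT1 encodes an adenosine monophosphoramidase, RNR4 a small subunit of ribonucleotide reductase and NCE102 a membrane protein of eisosomes. The stretches are chrIV:239803-239917 and chrIV:239594-239623 (minus strand), chrVII:856535-856649 and chrVII:856397-856426 (minus strand), and chrXVI:829633-829747 and chrXVI:829841-829870 (plus strand).
HNT1 distal start: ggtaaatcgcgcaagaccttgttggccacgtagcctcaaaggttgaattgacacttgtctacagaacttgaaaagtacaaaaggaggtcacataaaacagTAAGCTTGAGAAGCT
HNT1 proximal start: acttttaagaaacatTGATGGAGCCATTGA
RNR4 distal start: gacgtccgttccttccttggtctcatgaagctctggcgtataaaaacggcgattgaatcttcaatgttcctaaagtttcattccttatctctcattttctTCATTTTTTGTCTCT
RNR4 proximal start: aaggccttgtctcgaAACAGAAAGAAAAAA
NCE102 distal start: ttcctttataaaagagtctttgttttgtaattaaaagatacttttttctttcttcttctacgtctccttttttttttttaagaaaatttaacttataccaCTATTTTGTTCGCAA
NCE102 proximal start: aaaacatcttcaataAGAAAAATCGGTTAA
The coding region of HNT1 begins at position 239606 of chromosome IV, so its proximal cluster (239563 to 239608) spans the start codon.

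Promoters of 4 of the 7 iron genes called lower are shown beside them, with every GCACCC, on either strand, in capitals. All 4 hold these letters, which the promoter window of ARN2, the iron gene with the deepest decrease, does not. FIT2 and FIT3 encode cell wall mannoproteins that hold iron-siderophore complexes, and FET3 the ferroxidase of high-affinity iron uptake. TIS11 encodes an RNA-binding protein that directs messenger RNA decay in iron shortage and shares its promoter region, head to head, with RKM5, a ribosomal lysine methyltransferase. The stretches end at the first base before the cluster and lie at chrXV:1059275-1059503 (FIT2, plus strand), chrXV:1061108-1061341 (FIT3, minus strand) and chrXIII:388522-388766 (FET3, plus strand). The whole span between the TIS11 and RKM5 clusters is chrXII:416716-416974 and is printed on the plus strand, in the direction of RKM5.
FIT2: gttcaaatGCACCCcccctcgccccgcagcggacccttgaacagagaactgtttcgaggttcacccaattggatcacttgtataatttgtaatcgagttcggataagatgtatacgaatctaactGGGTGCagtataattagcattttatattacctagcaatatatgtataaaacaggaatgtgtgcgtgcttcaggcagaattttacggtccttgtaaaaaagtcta
FIT3: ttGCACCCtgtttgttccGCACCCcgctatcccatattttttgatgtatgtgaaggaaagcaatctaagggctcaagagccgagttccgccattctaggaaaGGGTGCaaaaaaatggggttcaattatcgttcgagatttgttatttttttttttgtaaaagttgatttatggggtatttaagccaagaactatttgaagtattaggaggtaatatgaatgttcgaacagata
FET3: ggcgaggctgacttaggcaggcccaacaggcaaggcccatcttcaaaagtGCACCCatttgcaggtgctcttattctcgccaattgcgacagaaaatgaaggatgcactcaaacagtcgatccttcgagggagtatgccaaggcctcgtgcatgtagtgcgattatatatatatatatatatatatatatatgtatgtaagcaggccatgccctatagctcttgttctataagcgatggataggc
TIS11 to RKM5: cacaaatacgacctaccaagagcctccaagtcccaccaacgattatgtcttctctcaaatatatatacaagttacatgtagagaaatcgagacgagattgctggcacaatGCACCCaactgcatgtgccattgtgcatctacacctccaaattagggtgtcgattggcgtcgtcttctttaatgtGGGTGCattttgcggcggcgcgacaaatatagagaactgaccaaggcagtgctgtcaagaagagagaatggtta
The 4 stretches hold 2, 3, 1 and 2 matches.

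DTT-treated swi3E815X cells had lower main starts than DTT-treated wild type for 7 of 24 iron genes, 5 of 18 general stress genes, 2 of 10 storage carbohydrate genes and 2 of 22 phosphate genes. Higher starts included those of CHA1 and SHM2, of serine and one-carbon metabolism, and of the mitochondrial genes ACO1 and ODC2. In the authors' deposited table, 72 of 5195 clusters (1.39%) were called at a Benjamini-Hochberg adjusted p under 0.05. Of these, 61 (1.17%) were lower and 11 (0.212%) higher in the mutant, and the median change of the called clusters was 3.45-fold. The median log2 fold change of all clusters was 0.02, and 47.9% lay below 0. The authors' deposited table gives no value per library, so errors are the authors' standard errors (SE), whose median was 0.362 for the 3913 clusters with a mean normalized count of at least 50. Arm means given below were computed from the deposited mean and fold change, each over 2 libraries. Since RNA was taken from whole cultures, fewer cells with a transcript and less transcript per cell cannot be told apart.

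**Figure D1:**
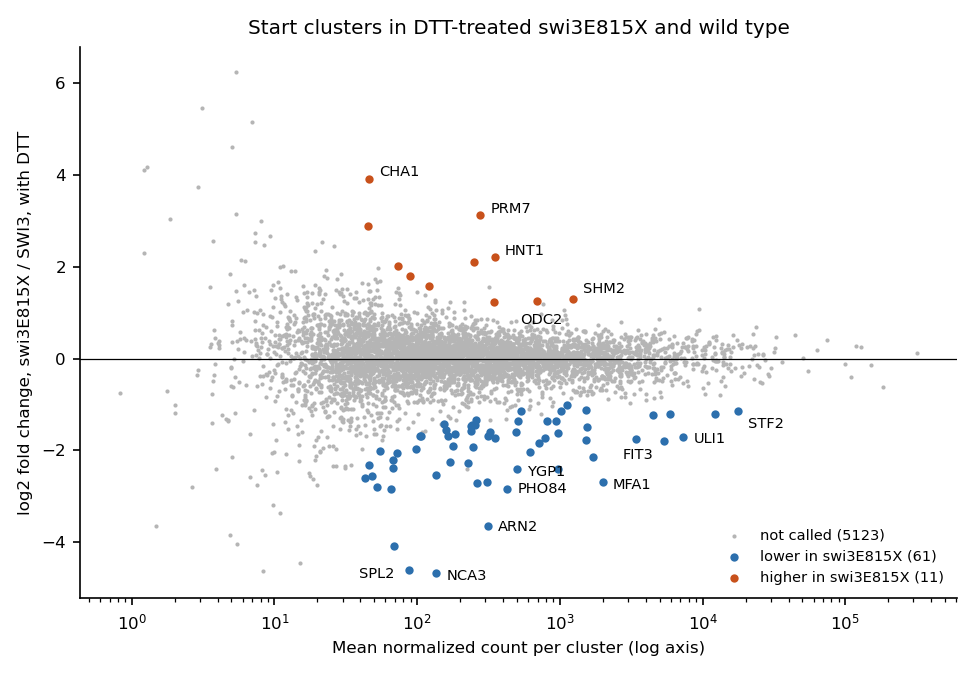
Each point is 1 of 5195 start clusters, with its mean normalized count (log axis) against its log2 fold change, swi3E815X over SWI3, both with DTT. The 61 clusters called lower (blue) outnumber the 11 called higher (orange), and called clusters have mean counts from 43.4 to 17631.

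The size of the list and its balance of directions changed with the wild-type mean that was used. The deposited SE holds neither the spread of the SNF2_DTT libraries nor the error of the rescaling. How many of the added calls reflect the strain was therefore not tested. Set against SNF2_DTT, the DTT-treated wild type of the snf2 strains (snf2Δ; SNF2::LEU2), with the deposited SE as an approximation, 288 clusters would be called, 137 higher and 151 lower. Of the 72 clusters called against SWI3_DTT, 64 were among these. Against the mean of both wild types 111 would be called, 20 higher and 91 lower, with 66 of the 72 among them. The 8 that lost the call against SNF2_DTT were GSY1, YPR195C, YHB1 and the intergenic clusters 3879, 2849, 7388, 2701 and 7082.

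Labels were checked against marker genes. SWI3 itself had a mean normalized count of 251 in wild type and 243 in the mutant (log2 fold change -0.05 ± 0.35 from the authors' deposited table), but its start lies before the mutated codon and so checks nothing of the mutation. Of 7 MATa-specific genes 6 had a main cluster, and none of 4 MATalpha-specific genes had one. A gene's main cluster is taken here as its cluster of highest mean count that is not inside the coding region.

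The 3 largest called decreases were in genes of unlike function. NCA3, of the SUN family, had an arm mean of 260.3 in wild type and 10.1 in the mutant, which the authors' deposited table gives as -4.68 ± 0.56 on the log2 scale (Benjamini-Hochberg adjusted p = 4.92e-14). SPL2, which restrains low-affinity phosphate uptake, went from 168 to 6.94, at a cluster inside its coding region (-4.60 ± 0.66 in the authors' deposited table). The start of YHR033W, an uncharacterised gene, went from 130.2 to 7.62 (log2 fold change -4.09 ± 0.69 from the authors' deposited table). All 3 were also lower without DTT, at -3.51, -3.44 and -2.74 (log2) in the authors' deposited untreated table.

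**Figure D2:**
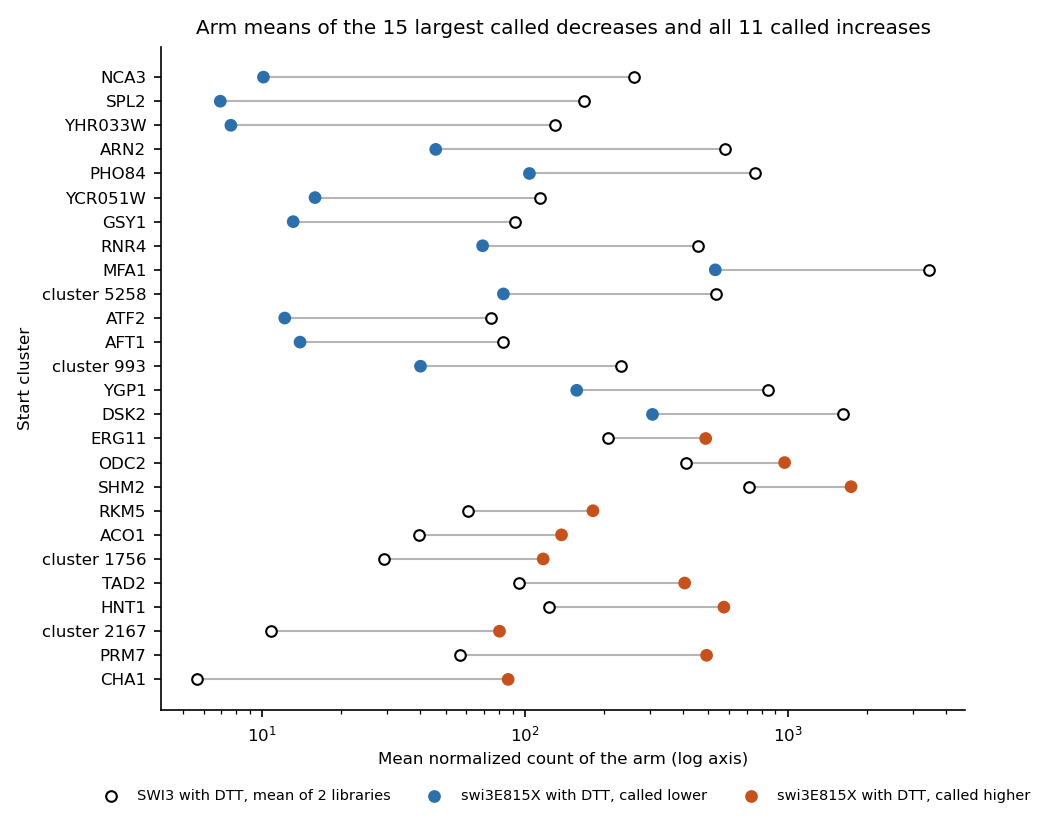
Open points give the mean normalized count of SWI3 with DTT and filled points that of swi3E815X with DTT, blue where lower and orange where higher (log axis, 2 libraries per arm), for the 15 largest called decreases and all 11 called increases. NCA3 fell from 260.3 to 10.1 and CHA1 rose from 5.69 to 86.5.

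Iron genes made up 7 of the 61 decreases. Of 24 iron genes with a main cluster 7 were called lower and none higher, beside 1.17% of all clusters called lower, and 19 lay below 0 with a median log2 fold change of -0.80. The gene lists of this report were chosen with earlier results of these data known, so such shares are a description and no test. The deepest was ARN2, a siderophore transporter, with arm means of 579 and 45.9 (log2 fold change -3.66 ± 0.39, Benjamini-Hochberg adjusted p = 2.95e-17, from the authors' deposited table). FIT2 fell from 1123 to 312 (-1.85 ± 0.32) and FIT3 from 8383 to 2429 (-1.79 ± 0.33) in the authors' deposited table. The other siderophore transporters of the list were not called, SIT1 at -1.35 ± 0.47 and ENB1 at -0.95 ± 0.30 in the authors' deposited table.

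Of 11 genes of reductive and vacuolar iron transport, FET3 was the 1 called, from 1339.7 to 524 (log2 fold change -1.35 ± 0.34 from the authors' deposited table). The vacuolar iron permease FTH1 (-0.71 ± 0.28), the low-affinity transporter FET4 (-0.89 ± 0.31), the mitochondrial carrier MRS4 (-0.59 ± 0.47) and the reductase FRE4 (-2.38 ± 0.77) were negative but not called in the authors' deposited table. Small values also stood for FRE6 (-0.08), SMF3 (-0.32), the copper chaperone ATX1 (-0.39) and the zinc and cobalt transporter COT1 (-0.36), while FRE1 (0.02) and the vacuolar importer CCC1 (0.13) lay above 0 in the authors' deposited table. The iron permease FTR1 had no main cluster, and its larger cluster inside the coding region stood at 0.34 ± 0.30 in the authors' deposited table. Likewise FET5, a vacuolar ferroxidase, was measured only inside its coding region (0.04 ± 0.29 in the authors' deposited table).

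Of 8 iron regulators and iron-sparing genes 3 were lower. AFT1, the activator of the regulon itself, fell from 82.4 to 14.0 at a cluster 421.5 bp before its coding start (log2 fold change -2.56 ± 0.64, Benjamini-Hochberg adjusted p = 0.00758, from the authors' deposited table). LSO1, a small protein induced in iron shortage, fell from 116 to 27.7 (-2.07 ± 0.52), and TIS11 from 354 to 119 (-1.57 ± 0.39) in the authors' deposited table. The haem oxygenase HMX1 stood at -0.90 ± 0.53, the TIS11 paralogue CTH1 at 0.13, FRA1 at -0.11 and the glutaredoxins GRX3 and GRX4 at 0.61 and 0.05, none called in the authors' deposited table. BOL2, an Aft1 regulator measured only inside its coding region, was at -0.35 in the authors' deposited table.

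The wild-type strains were also at different levels for most iron genes, a ratio given here without an SE or a test. The median log2 ratio of SWI3_DTT to SNF2_DTT was -0.56 over the 24 iron genes, 17 of which were lower in SWI3_DTT, beside -0.03 over all clusters. The ratio was -0.86 for ARN2, -1.98 for FIT2, -1.26 for FIT3, -1.07 for FET3, -3.59 for LSO1, -0.63 for TIS11 and -0.36 for AFT1. All 7 iron genes called against SWI3_DTT kept the call and had larger decreases against SNF2_DTT. This outcome was fixed by the arithmetic and is no separate support. The ratios, all below 0, were added to the same fold changes with the SE unchanged. The part of this strain difference in the decreases was not tested.

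Within the phosphate response 2 of 22 genes with a main cluster were called, both lower, and the median log2 fold change was 0.03, with 11 genes above 0 and 11 below. PHO84, the high-affinity phosphate transporter, fell from 752 to 104 (-2.85 ± 0.33, Benjamini-Hochberg adjusted p = 3.73e-15, from the authors' deposited table), and VTC3, a subunit of the polyphosphate polymerase, from 5275 to 1573 (-1.75 ± 0.26 in the authors' deposited table). SPL2 joined them through its cluster inside the coding region. PPN2, a polyphosphatase that was not on the list, fell from 1170.1 to 455 (log2 fold change -1.36 ± 0.29 from the authors' deposited table). The polymerase subunits VTC1 (0.61 ± 0.29), VTC2 (-0.37 ± 0.30) and VTC4 (-1.44 ± 0.59) and the sodium-coupled phosphate transporter PHO89 (-2.56 ± 1.03) were not called in the authors' deposited table. PHO5, the secreted acid phosphatase, had arm means of 3 and 3, too low to read.

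Storage carbohydrate and general stress genes lay mostly below 0. Of 10 glycogen and trehalose genes 2 were called lower, and 8 lay below 0 with a median log2 fold change of -0.33. The glycogen synthase GSY1 fell from 92.0 to 13.2 (-2.81 ± 0.76 in the authors' deposited table) and the phosphoglucomutase PGM2 from 112 to 24.1 (-2.22 ± 0.57 in the authors' deposited table). The second glycogen synthase, GSY2, stood at -1.11 ± 0.68 and the trehalose phosphate synthase TPS1 at -0.28 ± 0.46, neither called in the authors' deposited table.

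Of 18 general stress genes 5 were called lower and 17 lay below 0, with a median log2 fold change of -0.80 beside 0.02 for all clusters. YGP1, a secreted glycoprotein made on nutrient limitation, fell from 842 to 158 (-2.42 ± 0.31 in the authors' deposited table). DDR48, a DNA damage-responsive gene whose cluster the authors also assign to YMR173W-A, fell from 2369 to 687 (-1.79 ± 0.30 in the authors' deposited table). MSC1 fell from 283 to 75.0 (-1.92 ± 0.41), the nicotinamidase PNC1 from 734 to 287 (-1.36 ± 0.31) and STF2, a small hydrophilic protein linked to the ATP synthase, from 24296 to 10965 (-1.15 ± 0.28) in the authors' deposited table. The glucokinase GLK1 (-0.64 ± 0.31) and TFS1 (-0.79 ± 0.29) were not called in the authors' deposited table. MSC1, DDR48, PNC1 and STF2 are also genes that DTT raised in wild type, by 2.82, 3.34, 1.69 and 4.68 log2 units per the authors' deposited wild-type table, which shares the SWI3_DTT libraries with the comparison described here, while YGP1 stood at -0.96 there.

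Single genes of mating and the cell surface were also lower. MFA1, which encodes the a-factor pheromone, fell from 3452 to 531 (log2 fold change -2.70 ± 0.29, Benjamini-Hochberg adjusted p = 3.35e-17, from the authors' deposited table). It was the 1 gene called among 6 MATa-specific genes. MFA2, the other a-factor gene, went from 1176 to 573 and lay just outside the threshold (-1.04 ± 0.31, Benjamini-Hochberg adjusted p = 0.0502, from the authors' deposited table), and the alpha-factor receptor STE2 stood at 0.09 ± 0.31 in the authors' deposited table. Of 23 cell wall genes NCA3 and the mannoprotein TIP1 were lower, TIP1 from 252 to 78.8 (-1.68 ± 0.44 in the authors' deposited table). NCE102 fell at its distal start from 992 to 243 (-2.03 ± 0.34) and MRH1, a membrane protein related to heat shock protein Hsp30, from 1511 to 749.7 (-1.01 ± 0.27) in the authors' deposited table.

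Enzymes of nitrogen and lipid metabolism were among the remaining decreases. BAT2, a branched-chain aminotransferase, fell from 2270.4 to 805 (-1.50 ± 0.28), CAR2, the ornithine transaminase, from 1214 to 364 (-1.74 ± 0.40), and SER3, a phosphoglycerate dehydrogenase of serine synthesis, from 373 to 136 (-1.45 ± 0.35) in the authors' deposited table. ERG1, the squalene epoxidase, fell from 6261 to 2687 (-1.22 ± 0.26) and OPI3, a methyltransferase of phosphatidylcholine synthesis, from 8247 to 3565 (-1.21 ± 0.27) in the authors' deposited table. CHO2, which acts just before OPI3, was not called (-1.60 ± 0.48, Benjamini-Hochberg adjusted p = 0.0527, from the authors' deposited table). Of 25 ergosterol genes ERG1 was the 1 called at its main start, and 18 lay below 0. The alcohol acetyltransferase ATF2 (-2.61 ± 0.66), the glutamate decarboxylase GAD1 (-1.69 ± 0.47), the flavohaemoglobin YHB1 (-1.13 ± 0.29) and the vacuolar ABC transporter VMR1 (-1.59 ± 0.40) also fell in the authors' deposited table.

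Other decreases were in uncharacterised genes and between genes, or in genes outside the groups above. YCR051W fell at its distal start from 115 to 15.9 (-2.85 ± 0.61 in the authors' deposited table). Intergenic cluster 5258 (chrXII:201725-201730, plus strand), which is divergent from the purine gene ADE16, fell from 534 to 83.0, and cluster 993 (chrIV:59125-59154, plus strand) from 232 to 40.1 (-2.68 ± 0.38 and -2.53 ± 0.46 in the authors' deposited table). Decreases not yet named included COX20, a cytochrome oxidase assembly factor, CCT6, HHY1, INA1, YPR195C, RTA1, YOR289W and YET2, a relative of the ER protein Yet1, with intergenic clusters beside them. Of these genes COX20 had the deepest change (-2.32 ± 0.64) and YET2 the least (-1.13 ± 0.28) in the authors' deposited table. The clusters of COX20, YPR195C and YOR289W lay inside the coding regions, and that of COX20 had a mean normalized count of only 45.7.

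The 11 increases started with CHA1, the serine and threonine deaminase, which rose from 5.69 to 86.5 (log2 fold change 3.93 ± 0.68, Benjamini-Hochberg adjusted p = 2.03e-06, from the authors' deposited table). SHM2, the cytosolic serine hydroxymethyltransferase, rose from 714 to 1745 (1.29 ± 0.29 in the authors' deposited table). With SER3 these made 3 called genes of 18 in serine, glycine and one-carbon metabolism, 2 higher and 1 lower, with a median log2 fold change of 0.27. GCV2, a subunit of the glycine cleavage complex, stood at 1.05 ± 0.37 without a call in the authors' deposited table. In mitochondria, the aconitase ACO1 rose from 39.5 to 138 (1.81 ± 0.50) and the oxodicarboxylate carrier ODC2 from 411 to 975 (1.25 ± 0.32) in the authors' deposited table. The related carrier gene ODC1 (0.01 ± 0.39) was not called in the authors' deposited table.

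The other increases were starts inside coding regions, next to other genes or second starts. A start far inside PRM7, a pheromone-regulated gene, rose from 56.6 to 492 (log2 fold change 3.12 ± 0.37 from the authors' deposited table) and a start inside TAD2, a tRNA adenosine deaminase, from 94.7 to 406 (2.10 ± 0.37 in the authors' deposited table). The proximal starts of HNT1 and of ERG11, the lanosterol demethylase of ergosterol synthesis, rose from 124 to 573 and from 208 to 488 (2.21 ± 0.32 and 1.23 ± 0.32 in the authors' deposited table). RKM5 rose from 60.8 to 182 (1.58 ± 0.44 in the authors' deposited table). Intergenic cluster 2167 (chrV:141348-141442, plus strand), 497 bp before MIT1, rose from 10.8 to 80.2, and cluster 1756 (chrIV:539558-539576, minus strand), 1100 bp before ENA1, from 29.2 to 118 (2.89 ± 0.69 and 2.01 ± 0.51 in the authors' deposited table).

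Most genes of the unfolded protein response were not called. The ER chaperone KAR2 had arm means of 6652 and 6264 (log2 fold change -0.09 ± 0.31 from the authors' deposited table), and HAC1, the transcription factor of the response, 124279 and 94257 (-0.40 ± 0.29 in the authors' deposited table). None of 18 ER folding genes was called in the authors' deposited DESeq2 result, with a median log2 fold change of -0.24, and 2 had an unadjusted p under 0.05, both lower. None of 17 genes of ER-associated degradation was called (none at an unadjusted p under 0.05), and none of 44 genes of translocation and glycosylation (1 at an unadjusted p under 0.05). Of 8 genes of unfolded protein response signalling 1 was called, ULI1, a gene named for its induction in this response, which fell from 11234 to 3431 (-1.71 ± 0.31 in the authors' deposited table). DTT raised ULI1 by 8.70 log2 units per the authors' deposited wild-type table, which shares the SWI3_DTT libraries.

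The Swi/Snf subunits themselves were not called. Of 12 subunit genes 10 had a main cluster, between -0.47 (SNF6) and 0.44 (SNF2) with a median of 0.07 in the authors' deposited table, and none had an unadjusted p under 0.05 in the authors' DESeq2 result. SNF5 stood at 0.41, SNF11 at -0.28, SNF12 at 0.11, TAF14 at 0.37, ARP7 at 0.09, ARP9 at -0.21, RTT102 at 0.04 and, inside the coding region, SWI1 at 1.20 ± 1.71 in the authors' deposited table. Of 12 genes taken from textbooks as dependent on Swi/Snf 3 were lower (PHO84, SER3 and MFA1), while HO, the mating-type endonuclease, was at -0.45 ± 0.36 and SUC2, the invertase, at 0.13 ± 0.41 at a start inside its coding region in the authors' deposited table. That list was not split by the direction of dependence, so a lower start is not by itself agreement with it. SER3 rose in snf2Q928K (3.72 ± 0.28 in the authors' deposited table).

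**Figure D3:**
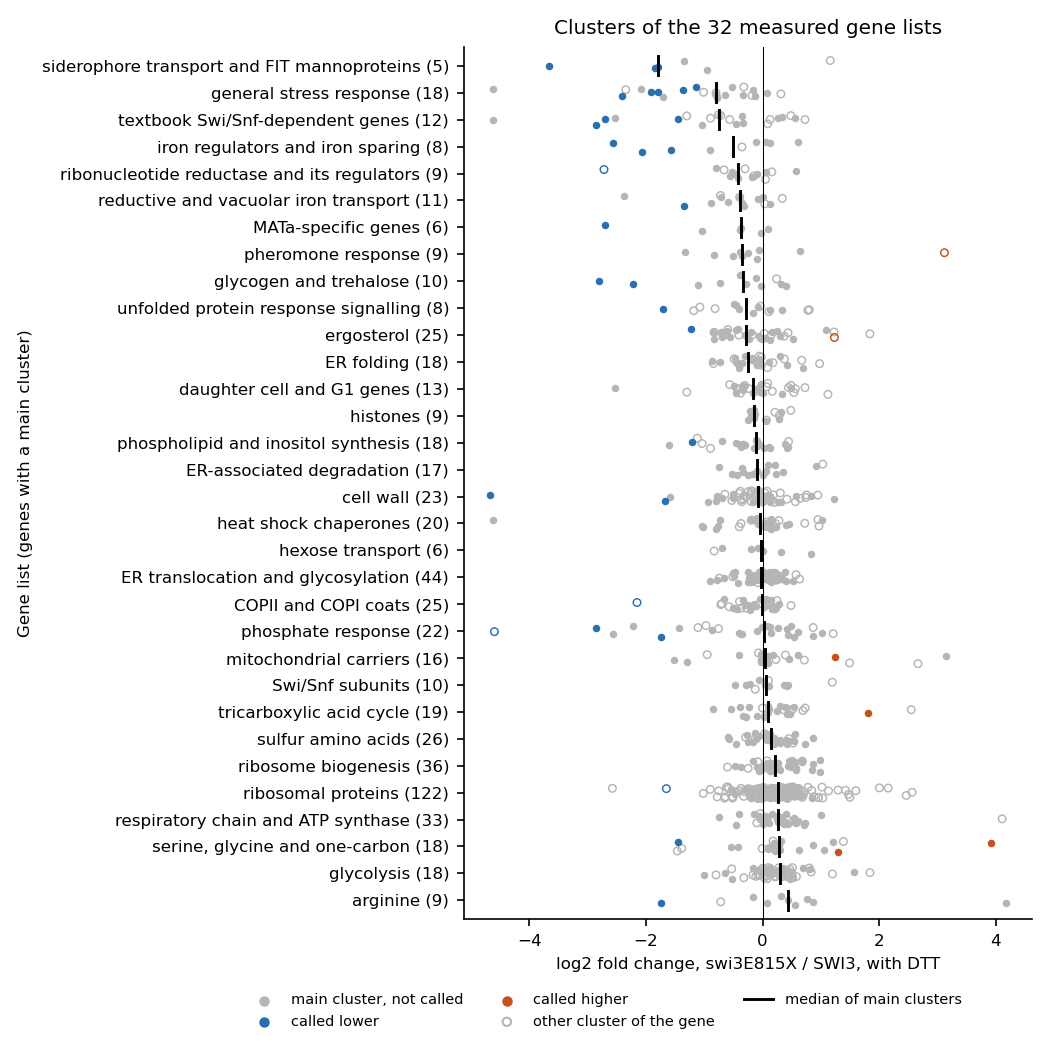
Each row is 1 gene list, with the log2 fold change (horizontal axis) of each gene's main cluster as a filled point and of its other clusters as open points, called clusters in colour and the median of the main clusters as a bar. The 3 iron lists and the general stress and textbook Swi/Snf lists have medians between -1.79 and -0.39, while ER folding (-0.24) and ribosomal proteins (0.26) hold no called main cluster.

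Growth-related lists held no called main cluster, and their medians lay slightly above 0. The median log2 fold change was 0.26 for 122 ribosomal protein genes, 108 of them above 0, and 0.21 for 36 ribosome biogenesis genes, of which 4 and 1 had an unadjusted p under 0.05 in the authors' DESeq2 result, all higher. Of 33 genes of the respiratory chain and ATP synthase none was called (median 0.27, 2 higher at an unadjusted p under 0.05). Glycolysis had a median of 0.30 over 18 genes without a call, with TDH1, a glyceraldehyde phosphate dehydrogenase gene, at 1.57 ± 0.47 (Benjamini-Hochberg adjusted p = 0.0615 from the authors' deposited table).

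Where a gene had more than 1 start, the 2 starts did not always change together. For each gene with several clusters of a mean normalized count of at least 20, every other cluster was set against the largest one, and the difference of the 2 log2 fold changes was tested against the normal distribution with both deposited SE taken as independent. Of 513 pairs in 395 genes 15 (2.92%) were shifted at a Benjamini-Hochberg adjusted p under 0.05. In 9 the start farther from the coding region was lower relative to the nearer one and in 6 it was higher, beside 54.2% distal lower among all pairs. In 10 of the 15 pairs 1 cluster was called on its own, in 5 neither, and in 13 the 2 log2 fold changes had opposite signs.

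The shifts with the smallest p were in HNT1 and RNR4, whose starts are printed above. The distal start of HNT1, 180 bp before the coding region, had arm means of 1657 and 1077 (log2 fold change -0.62 ± 0.29, not called in the authors' deposited table), while the proximal start rose. The share of the proximal start in the pair went from 6.97% to 34.7%, a difference of 2.83 ± 0.43 on the log2 scale (Benjamini-Hochberg adjusted p = 2.19e-08). In RNR4 the distal start, 221 bp before the coding region, fell from 456 to 69.2 (-2.72 ± 0.38 in the authors' deposited table) and the proximal start, 62.5 bp before it, had arm means of 259.7 and 386. The share of the distal start went from 63.7% to 15.2% (difference -3.29 ± 0.52, Benjamini-Hochberg adjusted p = 4.65e-08). The wild-type strains were also unlike at the distal RNR4 start, at 456 in SWI3_DTT and 1327 in SNF2_DTT (log2 ratio -1.54, without an SE). At the proximal start they were at 259.7 and 237. The part of this strain difference in the shift was not tested.

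NCE102, ERG11 and ENB1 shifted too, in unlike directions. In NCE102 the distal start fell and the proximal start had arm means of 77.0 and 139, so that the proximal share went from 7.20% to 36.3% (difference 2.88 ± 0.57, Benjamini-Hochberg adjusted p = 4.01e-05). In ERG11 the distal start had arm means of 3049.7 and 1854 (-0.72 ± 0.33, not called in the authors' deposited table), and the proximal share went from 6.38% to 20.9% (difference 1.95 ± 0.46, Benjamini-Hochberg adjusted p = 0.00217). ERG3, the sterol desaturase, and the siderophore transporter ENB1 went the other way, with distal shares from 1.19% to 4.84% and from 2.43% to 9.74%. In GFA1, which makes the precursor of chitin, the proximal start fell from 736 to 242 beside arm means of 682 and 1118 at the distal start, and its share went from 51.9% to 17.8% (difference -2.31 ± 0.45, Benjamini-Hochberg adjusted p = 3.68e-05).

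Several shifts involved starts inside coding regions. In DSK2, a ubiquitin receptor, a start 448.5 bp inside fell from 1633 to 306 (-2.41 ± 0.42 in the authors' deposited table), while the upstream start had arm means of 1045 and 1414, and the inside share went from 61.0% to 17.8%. In SEC24, a subunit of the COPII coat, the start just inside the annotated coding region fell from 2789 to 627 (-2.15 ± 0.35 in the authors' deposited table), while a second start deeper inside had arm means of 205 and 198. The inside starts of ULI1 (0.376% to 2.11%), CRN1 (21.4% to 6.60%), RPS23A (2.07% to 0.606%) and PRY1, where the upstream start went from 53.2% to 28.4% of the pair, also shifted. RPS23A has a near-identical copy, RPS23B, so reads inside its coding region may be split between them and its value is uncertain. The remaining pairs were YCR051W and HEM12, where the distal start went from 17.0% to 3.23% and from 0.675% to 0.0964%.

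**Figure D4:**
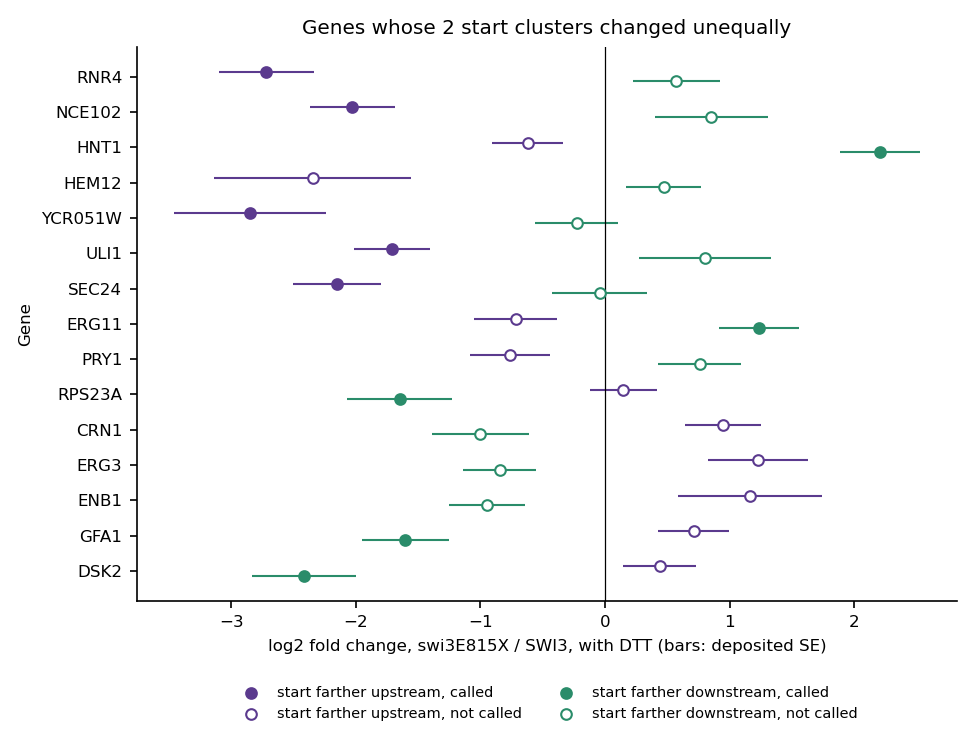
For the 15 genes with a shifted pair of starts, the log2 fold change (swi3E815X over SWI3, with DTT) of the start farther upstream (purple) and of the start farther downstream (green) is drawn with the deposited SE as bars, and filled points are called clusters. In RNR4 the upstream start lies at -2.72 and the downstream start at 0.57, and in HNT1 at -0.62 and 2.21.

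Most called clusters lay before coding regions, as most clusters did. Of the 72, 46 lay upstream of a coding region (63.9%, beside 68.6% of all clusters), 10 inside one (13.9% beside 14.5%) and 14 between genes (19.4% beside 13.7%), and the median width was 46 bp beside 42 bp. Of the 14 intergenic clusters 7 ran over a coding region on the other strand, such as cluster 993 over HBT1, cluster 6339 over the iron transporter gene FET4 and cluster 2920 over STF2. The same share over all 710 intergenic clusters was not counted, so the 7 cannot be read as a trait of called clusters. Cluster 2920 (chrVII:508239-508337, plus strand) and the STF2 start face each other 38 bp apart and both fell, from 1463 to 475 and from 24296 to 10965 (-1.62 ± 0.33 and -1.15 ± 0.28 in the authors' deposited table). ERG1 and the YGR176W cluster, 54 bp apart, fell together as well. TIS11 and RKM5 are the converse, with starts 259 bp apart on opposite strands that changed in opposite directions. Of 11 called clusters with a divergent partner within 400 bp, the partner was called for 2, which are TIS11 and RKM5 themselves.

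Short motifs were counted in windows from 250 bases before to 50 bases after each cluster's midpoint, on both strands. A TATA form, of which 4 were searched (TATAAAA and TATATAA, with their variants TATAAAT and, last, TATATAT), stood in 68.9% of the 61 windows of decreased clusters, 54.5% of the 11 of increased clusters and 45.3% of all 5195. GCACCC, which contains the Aft1 core CACCC, stood in 8 of 61, 1 of 11 and 288 of 5195 windows (13.1%, 9.09% and 5.54%). The 8 were AFT1, LSO1, HHY1, FIT2, FIT3, VMR1, TIS11 and FET3, and the 1 was RKM5, through the span it shares with TIS11. ARN2, the iron gene with the deepest decrease, was not among the 8. CACCC, with or without the G before it, stood in 34.4%, 18.2% and 25.1%. The Pho4 letters CACGTG stood in 5 of the 61 windows (8.20%, beside 4.16% of all), among them those of SPL2, VTC3 and YHR033W, and the stress element AGGGG in 31.1%, beside 22.0% of all. A window that holds these letters is not thereby a bound site.

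The same strains without DTT gave a comparison that shares no library with this one. Of 5182 clusters tested there 94 (1.81%) were called, and 21 of these (22.3%) were also called with DTT, which is 29.2% of the 72, each in the same direction. The median log2 fold change of the 61 decreases was -1.75 with DTT and -1.08 without, and that of the 11 increases 2.01 and 0.60. These clusters were chosen by their call with DTT, which favours larger values there, so the medians do not show a stronger effect under DTT. YGP1 (-3.61 without DTT), BAT2 (-2.28), VTC3 (-2.48), PHO84 (-1.56) and RNR4 at its distal start (-1.71) were among those called in both of the authors' deposited tables. Some clusters with a call only under DTT stood near 0 without it, such as STF2 (0.06 ± 0.40) and YHB1 (0.10) in the authors' deposited untreated table. ULI1 was at 0.13 ± 1.20 there, an SE too wide to place it near 0. A difference was not called for any of these.

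The difference between the effect with and without DTT was called for 2 of 5182 clusters (0.0386%), the proximal start of HNT1 and the start of ADE17. The HNT1 start rose with DTT (2.21 ± 0.32) and stood at 0.32 ± 0.28 without it in the authors' deposited tables, a difference of 1.89 ± 0.42 (Benjamini-Hochberg adjusted p = 0.0211). Without DTT its arm means were 1408 and 1754 in its own table, and in wild type DTT lowered it (-3.73 ± 0.23 log2 units per the authors' deposited wild-type table, which shares the SWI3_DTT libraries). ADE17, which encodes an enzyme of purine synthesis, had arm means of 99.6 and 198 with DTT (0.99 ± 0.41, not called) and 510.5 and 167 without it (-1.61 ± 0.41, called lower) in the authors' deposited tables, a difference of 2.60 ± 0.58 (Benjamini-Hochberg adjusted p = 0.0211). Neither call held at an adjusted p under 0.01 or with the Benjamini-Yekutieli adjustment.

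The ATPase mutants snf2W935R and snf2Q928K, also with DTT, changed many of the same clusters. Their tables use the SNF2_DTT libraries as wild type, so they share no library with this comparison, and a difference between them also holds that between the wild-type strains. In snf2W935R 279 of 5193 clusters were called (5.37%), 50 of them among the 72 called in swi3E815X (69.4% of these and 17.9% of the 279). In snf2Q928K 754 of 5194 were called (14.5%), 63 of them among the 72 (87.5% and 8.36%). All 50 and 62 of the 63 had the same direction. The change was larger in snf2W935R for 48 and in snf2Q928K for 52 of the 72, with median log2 fold changes of the 61 decreases at -2.46 and -2.57 beside -1.75 in swi3E815X. Called in neither snf2 mutant were 6 of the 72, INA1 and the intergenic clusters 3879, 2849, 7388, 2948 and 2167. A missing call there is not a difference in effect. Cluster 2167 stood at 4.78 ± 2.34 in snf2W935R and 4.20 ± 2.36 in snf2Q928K, and INA1 at -1.17 ± 0.40 and -0.46 ± 0.32. The difference between effects was called only for cluster 2849 from snf2W935R and for cluster 2948 from snf2Q928K (Benjamini-Hochberg adjusted p = 0.0156 and 0.0301).

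**Figure D5:**
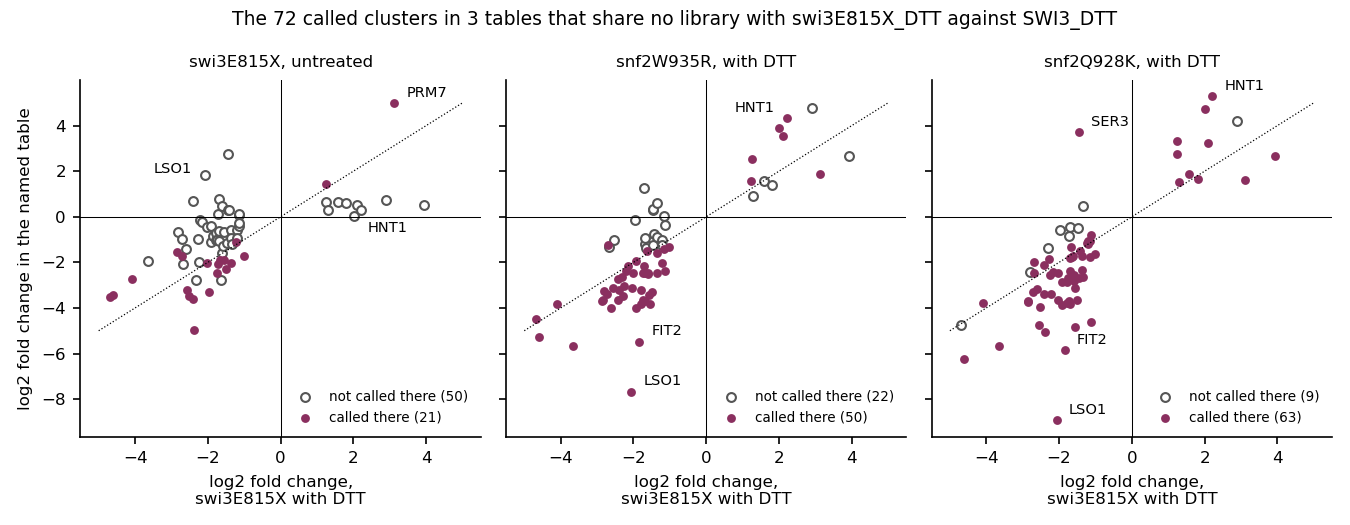
The log2 fold change of the 72 called clusters in swi3E815X with DTT (horizontal axis) is drawn against that in swi3E815X untreated, snf2W935R with DTT and snf2Q928K with DTT (vertical axes), with the line of equal change. SER3 lies at -1.45 in swi3E815X and at 3.72 in snf2Q928K, and HNT1 lies above the line in both snf2 panels.

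Iron genes were among the clusters whose change differed in size. The difference between the effects of swi3E815X and snf2W935R was called for 29 of 5193 clusters (0.558%), and that from snf2Q928K for 74 of 5194 (1.42%). ENB1 stood at -0.95 ± 0.30 in swi3E815X, -4.21 ± 0.37 in snf2W935R and -7.23 ± 0.38 in snf2Q928K in the authors' deposited tables, with differences of 3.26 ± 0.48 and 6.28 ± 0.49 (Benjamini-Hochberg adjusted p = 5.98e-08 and 2.79e-34). SIT1 went from -1.35 to -4.02 and -6.74, FIT2 from -1.85 to -5.48 and -5.86, and LSO1 from -2.07 to -7.67 and -8.94 in the authors' deposited tables, each difference called. Of the 7 iron genes called in swi3E815X, FET3, TIS11 and AFT1 had no called difference from either snf2 mutant. ARN2 had a called difference only from snf2Q928K and FIT3 only from snf2W935R. HMX1 and FRE7, a reductase gene that is not among the 24 iron genes counted above, were both uncalled in swi3E815X. They were at -5.41 and -2.73 in snf2W935R and at -4.30 and -4.08 in snf2Q928K in the authors' deposited tables, again with both differences called. The log2 ratio of SWI3_DTT to SNF2_DTT was below 0 for each of these genes, from -3.59 (LSO1) to -0.58 (FRE7), and the part of this in the differences was not tested.

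Outside the iron genes, HNT1, SER3 and HO stood out. The proximal start of HNT1 was at 4.33 ± 0.40 in snf2W935R and 5.29 ± 0.26 in snf2Q928K in the authors' deposited tables, above its 2.21 in swi3E815X (differences of -2.13 ± 0.51 and -3.08 ± 0.41, Benjamini-Hochberg adjusted p = 0.0135 and 4.49e-11). SER3 fell in swi3E815X, was at 0.35 ± 0.41 in snf2W935R and rose in snf2Q928K (3.72 ± 0.28 in the authors' deposited table), a difference of -5.18 ± 0.44 from the latter (Benjamini-Hochberg adjusted p = 4.88e-28). HO, uncalled in swi3E815X, was at -5.52 in snf2Q928K in the authors' deposited table, and its differences from snf2W935R and snf2Q928K were 3.56 ± 0.88 and 5.07 ± 0.96. KAR2 was at -1.54 in snf2Q928K in the authors' deposited table, a difference of 1.45 ± 0.41 (Benjamini-Hochberg adjusted p = 0.0331).

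At the threshold, the 3 clusters just inside with a mean normalized count of at least 50 were RKM5, CCT6, a chaperonin subunit, and cluster 2701, with adjusted p of 0.0272, 0.0359 and 0.0360 in the authors' deposited table by Benjamini-Hochberg adjustment in DESeq2. The 3 just outside were MFA2, YPL162C and CHO2, at 0.0502, 0.0525 and 0.0527 in the same table.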

How the data were processed

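TL-seq libraries from 4 cultures were compared through a table that the authors deposited. Per the submitters' processing notes, reads were handled with cutadapt, HISAT2 and DESeq2 on sacCer3/R64, with tool versions not given in the sources used here. A line of each table holds, per the file headers, a consensus cluster with its mean normalized count (a signal scaled by the authors across libraries), log2 fold change with SE, Wald statistic (a score, checked to be the fold change over its SE, as deposited) and p-value, all computed by the authors. The deposited adjusted p was checked to be a Benjamini-Hochberg adjustment. The tables hold no value per library, so depth, SD and n per library are unknown, and arms have 2 libraries each. Mean normalized counts of the table summed to 5901940. Each table was normalized separately, so levels are compared only within a table, except the SNF2_DTT levels, which were rescaled through the wild-type table.

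Arm means were computed from the deposited mean and fold change. Clusters were classed by their midpoint against the R64 annotation of RefSeq. Differences between effects were tested as the difference of 2 log2 fold changes over the root of their summed squared SE, with Benjamini-Hochberg adjustment over all clusters. That test was checked on simulated data. Members and gene lists were chosen with earlier results of these data known. The text names every called cluster of interest, with the 15 largest decreases drawn and all increases described, both HNT1 starts, Swi/Snf subunits, iron genes, called members and abundant examples of other lists, differing clusters and 3 clusters on each side of the threshold. Alternatives were other thresholds, filters, adjustment, centring, a test against a 2-fold change and another wild type. In every table, 2 lines without values were not used, and 0 columns of single samples were left out. Python 3.11.15, pandas 2.3.3, numpy 2.4.6, scipy 1.17.1 and matplotlib 3.10.9 were used. A gene value and some sequences are not reported here.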

Additional observations from a re-analysis of the deposited data

Results flagged for a closer look

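The effect of swi3E815X differed between cultures with and without DTT for 2 clusters, by a test of the difference itself. For the proximal HNT1 start the log2 fold change with DTT exceeded that without by 1.89, and for the ADE17 start by 2.60, each with a Benjamini-Hochberg adjusted p of 0.0211. At an unadjusted p under 0.05 the same test gave 198 of 5182 clusters, a smaller share than the 0.05 to be reached without any difference.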

How the results depend on the processing

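No paired analysis was possible because the deposited tables hold no values per library, and for the same reason no library could be left out in turn. The count of 72 called clusters became 42 with the Benjamini-Yekutieli adjustment, 11 in a test against a 2-fold change, 288 (137 higher, 151 lower) against SNF2_DTT and 111 (20 higher, 91 lower) against both wild types. It was 51 and 84 at adjusted p of 0.01 and 0.1, 73 and 72 with a mean normalized count of at least 10 or 50, and 76 after centring. The 72 at a minimum of 50 were not the same set, with 67 shared with the main list and 5 new. The minimum of 50 left out CHA1 (mean 46.1), AFT1 (48.2), ATF2 (43.4), COX20 (45.7) and cluster 2167 (45.5). The 2 clusters that differed between DTT and untreated became 0 at 0.01, 4 at 0.1, 0 by Benjamini-Yekutieli and 0 against a 2-fold change. In the main test 198 of 5182 had an unadjusted p under 0.05, a share below 0.05. The 29 differences from snf2W935R became 10 at 0.01, 46 at 0.1, 6 by Benjamini-Yekutieli and 2 against a 2-fold change. The 74 from snf2Q928K became 47 at 0.01, 45 by Benjamini-Yekutieli and 14 against a 2-fold change. The 15 start shifts became 11 at 0.01, 17 at 0.1, 10 by Benjamini-Yekutieli and 3 against a 2-fold change. HEM12, RPS23A, PRY1 and ENB1 lost the call at 0.01 and by Benjamini-Yekutieli, and HEM12 and ENB1 also at a minimum mean of 50. The minimum mean of 10 was not run for the shifts since pairs already needed 20. No called value changed sign under the alternatives run. Of 73 named results 8 lost the call against SNF2_DTT and 6 against both wild types, with the deposited SE as an approximation, and 30, 21 and 61 lost it by Benjamini-Yekutieli, at 0.01 and against a 2-fold change. The cause of these changes is the stricter or looser rule, while that of the change with the wild type was not tested.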
